A study of Mus musculus with 6 samples.

Results

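Heat shock chaperones are the proteins that fold new polypeptides and refold damaged ones. The genes described here are 10 that span the main families: the stress-inducible Hspa1a, Hspa1b, Hsph1, Hsp90aa1 and Dnajb1, the constitutive Hspa8 and Hsp90ab1, the mitochondrial pair Hspd1 and Hspe1, and the regulator Hsf1. They were chosen by gene symbol, and each of the 10 had a row among the 30587 rows of the count table. RNA sequencing compared dendritic cells grown from the bone marrow of KO and WT mice of the C57BL/6 strain, with 3 libraries each. KO cells carried floxed alleles of Hif2a (official symbol Epas1) with a CD11c-Cre transgene, whose promoter is active in dendritic cells and some macrophages. WT cells carried the floxed alleles alone. Every culture, KO and WT, was kept for 24 h in dimethyloxalylglycine (DMOG), which blocks the prolyl hydroxylases and so stabilises HIF α subunits, and then for 4 h with the glycolipid α-galactosylceramide. No untreated culture is among the samples, so the levels below are those of treated cells and the genotype is the only contrast. The study asked how HIF-2α affects the way dendritic cells prime responses to glycolipid. The age of the mice is not given in the sources used here. The labels also leave unsaid whether the libraries of a genotype are separate mice, so a p-value here speaks only of the spread among these libraries, some of which may be technical.

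HSP70 chaperones bind exposed hydrophobic stretches of other proteins in cycles driven by ATP, with J-domain proteins delivering the substrate and HSP110 proteins exchanging the nucleotide. HSP90 acts later on kinases, receptors and transcription factors, and HSP60 with its lid HSP10 folds proteins imported into mitochondria. When misfolded protein draws the chaperones away, the transcription factor HSF1 forms trimers, binds repeats of the unit nGAAn in alternating orientation (heat shock elements) and induces the stress-responsive genes. Much of HSF1 control acts on the protein, which RNA counts do not measure.

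Promoter sequences are shown for members in which RNA rose and for a mitochondrial member that did not pass the test, since heat shock elements lie in both. RefSeq promoter windows of the GRCm38.p6 build, from 250 bases before to 50 after a start, were at hand for 6 of the 10 members (9 windows) and not for Hsp90aa1, Hspa8, Hsp90ab1 and Hsf1. Capitals mark heat shock elements, searched as 2 adjoining units (GAANNTTC or TTCNNGAA, each its own reverse complement) and as 3 units (GAANNTTCNNGAA or TTCNNGAANNTTC, each the reverse complement of the other on the opposite strand, and each holding both 2-unit forms). The 200 bases before the start are printed 5′ to 3′ on the strand of the gene, and, for Hsph1, also 30 bases after it.
Hspa1a (chr17:34972157-34972356, minus strand): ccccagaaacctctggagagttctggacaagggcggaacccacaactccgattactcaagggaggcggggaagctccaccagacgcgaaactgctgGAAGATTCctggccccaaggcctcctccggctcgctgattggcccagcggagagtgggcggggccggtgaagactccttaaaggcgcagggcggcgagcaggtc
Hspa1b (chr17:34959239-34959438, minus strand): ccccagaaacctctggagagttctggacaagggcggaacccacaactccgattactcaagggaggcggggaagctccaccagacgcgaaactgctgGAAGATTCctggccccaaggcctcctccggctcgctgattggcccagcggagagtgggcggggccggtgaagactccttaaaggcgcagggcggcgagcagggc
Hsph1 (chr5:149636337-149636536, minus strand): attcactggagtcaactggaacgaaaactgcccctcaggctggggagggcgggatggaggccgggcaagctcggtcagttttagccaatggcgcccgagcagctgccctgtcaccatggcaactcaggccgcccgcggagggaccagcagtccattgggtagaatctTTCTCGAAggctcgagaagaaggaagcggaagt
Hsph1 after the start (chr5:149636287-149636316, minus strand): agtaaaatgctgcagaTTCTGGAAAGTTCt
Hspe1 (chr1:55087948-55088147, plus strand): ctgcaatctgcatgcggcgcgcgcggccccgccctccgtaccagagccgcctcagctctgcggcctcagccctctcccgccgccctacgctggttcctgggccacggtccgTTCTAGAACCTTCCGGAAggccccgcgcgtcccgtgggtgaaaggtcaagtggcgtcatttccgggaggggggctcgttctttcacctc

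The Hspa1a and Hspa1b windows each held 1 such 2-unit element, whose first base lies 104 bases before the start, and differed from each other at 4 of 300 bases. Hsph1 held a 2-unit match 33 bases before the start and, after it, a 3-unit match made of a further 2 overlapping 2-unit matches. Hspe1 and the second Hspd1 window held the same 18 bases, at chr1:55088059-55088076, where the 2-unit form matches 3 times and the 3-unit form 2 times, with overlap. Neither Dnajb1 window held a perfect 2-unit match. Among 32817 promoter windows of the same length, 15.1% held a 2-unit and 0.603% a 3-unit match. The letters ACGTG, a form of the core that HIF binds, were searched on both strands, and other forms of the core were not searched. ACGTG was in both Hsph1 windows, the second Dnajb1 window and the first Hspd1 window, against 19.6% of all windows. A match describes letters and not binding.

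Total counts ran from 16826800 to 17884160 in KO libraries and from 14668641 to 17041448 in WT libraries. KO 1 and WT 2 differed from the others at low levels, since a lone read was found in 3610 rows of KO 1 and 4825 rows of WT 2, against 1961 to 2316 rows in the other libraries. Epas1, the targeted gene, had 175, 214 and 198 reads in KO and 339, 352 and 349 in WT, a log2 fold change of -0.98 ± 0.12 (SE; edgeR adjusted p = 3.4e-05), where reads of exons that the floxed part does not hold are counted too. Of 12 dendritic cell markers 11 had enough reads to be tested. Of these, 2 rose (Flt3 and Zbtb46) and 5 fell (Cd74, H2-Ab1, H2-Aa, Ciita and Irf4), named after their values were known. Of all genes tested 13.8% rose and 12% fell. Itgax (CD11c) did not pass. The summed level of the 12 markers was 7246 to 7278 CPM in KO and 8361 to 8663 CPM in WT. Most of it came from the MHC class II genes Cd74, H2-Ab1 and H2-Aa, at 4446 to 4735 CPM in KO and 5860 to 6186 CPM in WT. All 10 macrophage and monocyte markers were tested as well, with sums of 4279 to 4727 CPM in KO and 3815 to 4037 CPM in WT. Sums were 41.9 to 61.5 CPM in KO and 34.7 to 49.0 CPM in WT for neutrophil markers, 76.2 to 81.6 CPM in KO and 47.1 to 53.2 CPM in WT for mast cell and basophil markers, and 4.66 to 6.09 CPM in KO and 9.07 to 10.2 CPM in WT for B cell markers. They were at most 1.18 CPM in KO and 1.23 CPM in WT for T and NK cell markers, and 0.658 CPM in KO and 0.273 CPM in WT for erythroid markers. Kit made up most of the mast cell and basophil sum, at a mean of 73.9 CPM in KO and 48.8 CPM in WT. Of 4 tested markers of that list, 3 rose (Kit, Mcpt8 and Prss34) and 0 fell. Mcpt8 and Prss34 had low levels, at means of 1.146 and 1.975 CPM in KO and 0.2728 and 0.9613 CPM in WT. Ighm made up most of the B cell sum, at a mean of 3.47 CPM in KO and 7.96 CPM in WT. Kit, Mcpt8, Prss34 and Ighm are named after their values were known. The part of these shifts in the chaperone values was not tested, and in bulk RNA a change in the number of cells of a type and a change in RNA per cell cannot be told apart.

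All 10 chaperone genes passed the low-count filter. In KO cells 4 rose (Hspa1a, Hspa1b, Hsph1 and Hsf1) and 1 fell (Hsp90ab1), whereas the other 5 did not pass the test (quasi-likelihood F test in edgeR, adjusted by Benjamini-Hochberg over 13249 genes). The same test called 25.8% of all genes tested, 13.8% higher and 12% lower. The median log2 fold change of the 10 was -0.01, as was that of all genes tested. KO and WT libraries did not overlap in 6 of the 10, against 40.4% of all genes tested. Of the 4 that rose, 3 were inducible members and 1 was the regulator Hsf1. The calls were not uniform within the inducible or the constitutive genes. Of 5 inducible members 3 rose and 2 did not pass, 1 of 2 constitutive members fell, and neither mitochondrial member passed. Fold changes are KO over WT with SE and n = 3 libraries per genotype, and CPM are counts scaled to a common library size with TMM factors.

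**Figure D1:**
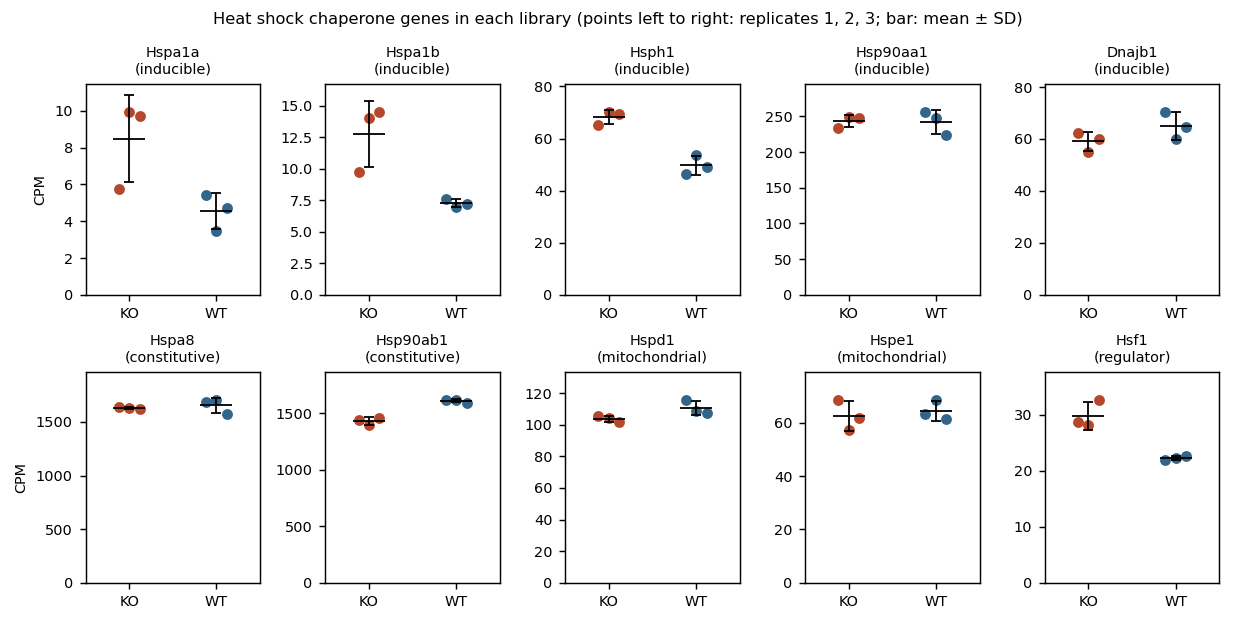
CPM of the 10 heat shock chaperone genes in each KO (left, red) and WT (right, blue) library, with points for replicates 1, 2 and 3 from left to right and bars for mean ± SD (n = 3); each vertical axis starts at 0. KO libraries lie above all WT libraries for Hspa1a, Hspa1b, Hsph1 and Hsf1 and below them for Hsp90ab1 and Hspd1.

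Hspa1a and Hspa1b encode the stress-inducible HSP70 proteins, and lie close together on chromosome 17 of mm10 on the minus strand, at 34969190 to 34972156 for Hspa1a and 34956436 to 34959238 for Hspa1b. Hspa1a had 105, 168 and 168 reads in KO 1, 2 and 3, against 92, 54 and 69 in WT 1, 2 and 3. In scaled terms it had 5.76, 9.95 and 9.74 CPM in KO, against 5.44, 3.50 and 4.71 CPM in WT. The groups did not overlap, but KO 1 lay near WT 1 and apart from the other KO libraries. Its log2 fold change was 0.89 ± 0.22, or 1.85-fold (edgeR adjusted p = 0.0093), and without KO 3 it did not pass (0.78, edgeR adjusted p = 0.0569; all alternatives ran from 3.44e-06 to 0.0569).

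Hspa1b had 177, 237 and 250 reads in KO, against 129, 108 and 105 in WT. That is 9.70, 14.0 and 14.5 CPM in KO, against 7.63, 6.99 and 7.16 CPM in WT. KO 1 was again the lowest KO library, while the WT libraries lay close to each other. The log2 fold change was 0.81 ± 0.15, or 1.75-fold (edgeR adjusted p = 0.0019). The 2 genes are near-identical copies, and 58.8% of the 50-base stretches of the Hspa1a transcript also occur in Hspa1b. How reads that match both were counted is not stated, so the split between the copies is uncertain. Summed into 1 row, they had 282, 405 and 418 reads in KO against 221, 162 and 174 in WT, and the log2 fold change was 0.84 ± 0.16 (edgeR adjusted p = 0.0016). Exons of Gm20481 on the opposite strand cover 19.0% of the exon bases of Hspa1a, and reads of the 2 genes may not have been told apart.

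Hsph1, encoding the HSP110 protein that exchanges the nucleotide of HSP70 (chromosome 5, 149614287 to 149636376, minus strand), was the member with the lowest p. It had 65.3, 70.2 and 69.3 CPM in KO, against 46.5, 53.7 and 49.2 CPM in WT. Every KO library lay well above every WT library, and both groups were narrow. The log2 fold change was 0.46 ± 0.07, or 1.37-fold with a 95% interval of 1.24 to 1.52 (edgeR adjusted p = 0.00025).

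The other inducible members did not pass the test. Hsp90aa1, the inducible HSP90 (chromosome 12, 110690605 to 110702728, minus strand), had 233, 250 and 248 CPM in KO, against 256, 247 and 223 CPM in WT. The groups overlapped fully, and the log2 fold change of 0.01 had a 95% interval of -0.14 to 0.15 (edgeR adjusted p = 0.96). Dnajb1, the J-domain partner that stimulates HSP70 (chromosome 8, 83608193 to 83612653, plus strand), had 62.2, 55.0 and 59.9 CPM in KO, against 70.4, 59.8 and 64.5 CPM in WT. Its groups also overlapped, and the log2 fold change of -0.14 had an interval of -0.29 to 0.02 (edgeR adjusted p = 0.19). It was -0.07 without WT 1, -0.09 without KO 2 and -0.23 without WT 2 and KO 1, and passed in none of the 15 alternatives (adjusted p from 0.055 to 0.618). The intervals of Hsp90aa1 and Dnajb1 end below that of Hsph1, which runs from 0.31 to 0.60.

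Of the constitutive members, Hspa8, encoding the HSC70 protein of unstressed cells (chromosome 9, 40800984 to 40810087, plus strand), had 1640, 1628 and 1618 CPM in KO, against 1685, 1706 and 1573 CPM in WT. The KO values lay within the span of the WT values, with a log2 fold change of -0.02 and an interval of -0.12 to 0.08 (edgeR adjusted p = 0.77). Hsp90ab1, the constitutive HSP90 (chromosome 17, 45567775 to 45573271, minus strand), had 1444, 1393 and 1454 CPM in KO, against 1619, 1613 and 1594 CPM in WT. All KO libraries were below all WT libraries. It fell by 0.17 ± 0.04 on the log2 scale, which is 1.12-fold lower (edgeR adjusted p = 0.014). This small difference did not pass without KO 2 (-0.15), without KO 3 (-0.18), without WT 1 (-0.16) or with no low-count filter (-0.16), with edgeR adjusted p from 0.0577 to 0.102 there.

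Neither gene of the mitochondrial pair passed the test. Hspd1, encoding HSP60 (chromosome 1, 55077835 to 55088243, minus strand), had 105, 104 and 102 CPM in KO, against 116, 108 and 108 CPM in WT. KO libraries lay just below WT libraries without overlap, but the log2 fold change of -0.09, with an interval of -0.21 to 0.02, did not pass (edgeR adjusted p = 0.23), and it was -0.05 without WT 1. Hspe1, encoding its lid HSP10 (55088132 to 55091307, plus strand), had 68.4, 57.4 and 61.6 CPM in KO, against 63.3, 68.6 and 61.2 CPM in WT. Its groups overlapped, with a log2 fold change of -0.04 and an interval of -0.20 to 0.11 (edgeR adjusted p = 0.71). The shared heat shock elements above lie before the annotated start of Hspe1 and before the start of the second Hspd1 window, but after the first Hspd1 start, whose window held none. The annotated exons of the 2 genes overlap on opposite strands by 112 bases, 4.24% of those of Hspd1 and 7.60% of those of Hspe1.

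Hsf1, encoding the regulator itself (chromosome 15, 76477422 to 76501913, plus strand), rose. It had 28.7, 28.1 and 32.7 CPM in KO, against 21.9, 22.2 and 22.7 CPM in WT. The WT libraries were nearly alike, and each KO library was above them. The log2 fold change was 0.42 ± 0.09, or 1.34-fold with an interval of 1.18 to 1.52 (edgeR adjusted p = 0.0030).

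**Figure D2:**
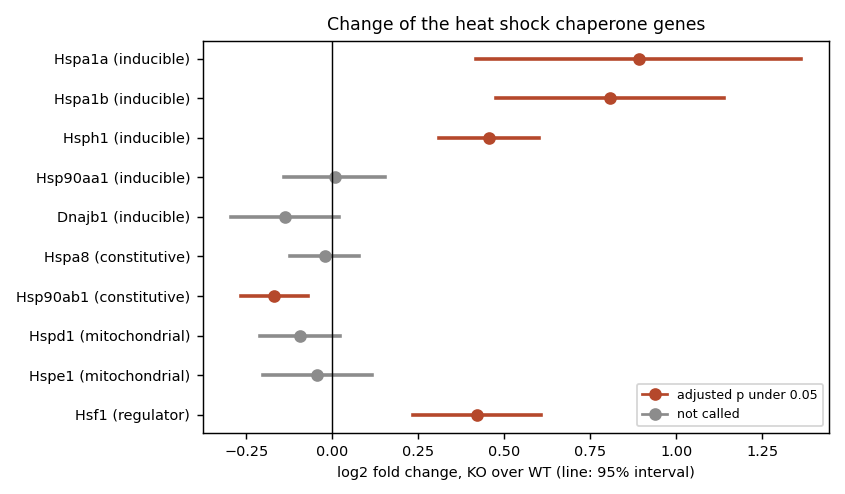
Log2 fold change, KO over WT, of the 10 genes (point) with its 95% interval from the edgeR quasi-likelihood fit (line), red where the adjusted p is under 0.05. The intervals of Hspa1a, Hspa1b, Hsph1 and Hsf1 lie above 0, that of Hsp90ab1 lies below 0, and the others include 0.

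Ratios of 2 genes within a library do not depend on scaling. The log2 ratio of Hspa1a plus Hspa1b over Hspa8 was -6.73, -6.08 and -6.06 in KO, against -7.01, -7.35 and -7.05 in WT. The log2 ratio of Hsph1 over Hspa8 was -4.65, -4.53 and -4.54 in KO, against -5.18, -4.99 and -5.00 in WT. For Hsp90aa1 over Hsp90ab1 it was -2.63, -2.48 and -2.55 in KO, against -2.66, -2.71 and -2.83 in WT. These 3 ratios did not overlap between genotypes and were higher in KO, by a mean log2 difference of 0.84, 0.48 and 0.18. Each had a two-sided exact permutation p of 0.1, the smallest that 3 against 3 libraries can give, and 0.167 after Benjamini-Hochberg adjustment over the 5 ratios compared, so none could pass. Dnajb1 over Hspa8 differed by -0.11 (exact permutation p = 0.3) and Hspd1 over Hspe1 by -0.05 (exact permutation p = 0.7), and the groups overlapped in both.

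**Figure D3:**
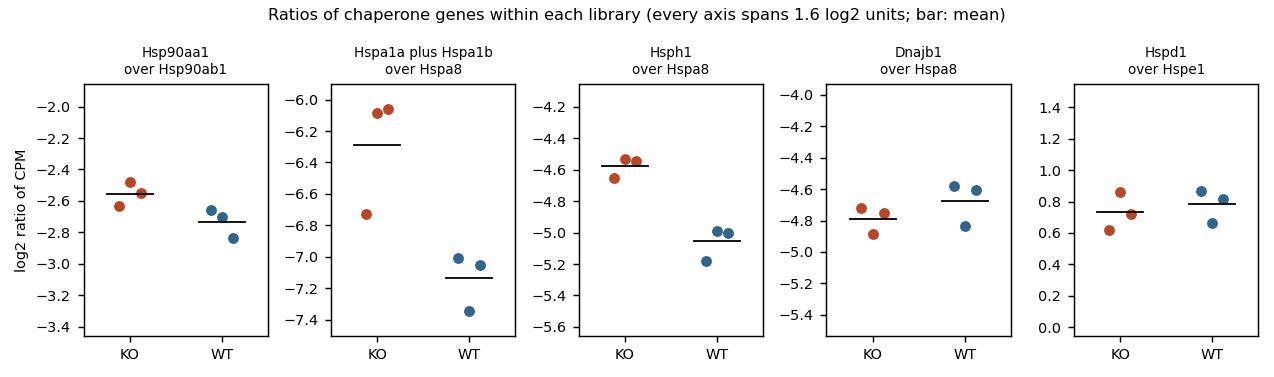
Log2 ratio of CPM of 5 gene pairs in each KO (left, red) and WT (right, blue) library, with bars for the mean and vertical axes of equal span. KO libraries lie above all WT libraries for Hsp90aa1 over Hsp90ab1, Hspa1a plus Hspa1b over Hspa8, and Hsph1 over Hspa8, and overlap with them for Dnajb1 over Hspa8 and Hspd1 over Hspe1.

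Levels differed far more between the genes than between the genotypes. Per kb of exon, Hsp90ab1 had the highest level of the 10, at 477 ± 10.9 CPM per kb in KO and 536 ± 4.35 CPM per kb in WT (SD, n = 3 each). Hspa8 followed at 379 ± 2.56 CPM per kb in KO and 385 ± 16.6 CPM per kb in WT. After these constitutive genes came Hsp90aa1 at 62.0 CPM per kb in KO and 61.7 CPM per kb in WT, then Hspe1 and Hspd1, whose ranges overlapped each other in both genotypes, and then Dnajb1 and Hsph1. The lowest levels per kb were those of Hsf1 at 4.20 ± 0.352 CPM per kb in KO and 3.14 ± 0.0550 CPM per kb in WT, Hspa1b at 4.55 ± 0.944 CPM per kb in KO and 2.59 ± 0.118 CPM per kb in WT, and Hspa1a at 2.86 ± 0.797 CPM per kb in KO and 1.53 ± 0.331 CPM per kb in WT. In KO the ranges of Hspa1b and Hsf1 overlapped, and in WT Hsf1 lay above Hspa1b. The inducible copies Hspa1a and Hspa1b made up 1.92% ± 0.453 in KO and 1.06% ± 0.126 in WT of the per-kb level of the 3 HSP70 genes Hspa1a, Hspa1b and Hspa8. Hsp90aa1 made up 11.5% ± 0.526 in KO and 10.3% ± 0.578 in WT of the per-kb level of Hsp90aa1 and Hsp90ab1 (SD, n = 3 each).

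**Figure D4:**
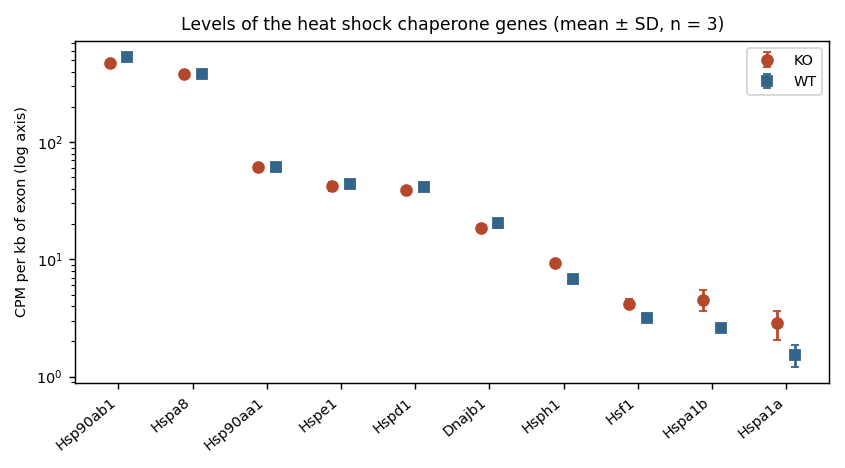
Level of the 10 genes in CPM per kb of exon on a log axis, as mean ± SD over 3 KO libraries (circles, left) and 3 WT libraries (squares, right), ordered by the WT level. Hsp90ab1 and Hspa8 lie at 366 CPM per kb or more in every library, while Hsf1, Hspa1b and Hspa1a lie at 5.17 CPM per kb or less.

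Other chaperone genes went both ways. In 10 lists of further chaperones and co-chaperones, 87 of 98 genes were tested, of which 10 rose and 10 fell, 23.0% against 25.8% of all genes tested, with a median log2 fold change of -0.02 against -0.01. With scaling to library size only, 15 rose and 6 fell. Without KO 3, 4 rose and 1 fell, and without WT 1, 6 rose and 2 fell. The number that fell was 5 without KO 2 or without WT 2, and 4 without both WT 2 and KO 1.

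Among 12 J-domain co-chaperones of the cytosol and nucleus, 1 rose and 1 fell. Dnajb2, a neuronally enriched J-domain protein that also takes substrates to the proteasome, had 50.3 ± 4.68 CPM in KO and 34.1 ± 2.09 CPM in WT (SD), a log2 fold change of 0.56 ± 0.08 (edgeR adjusted p = 0.00023), while Dnajb14 fell by 0.24 ± 0.06 (edgeR adjusted p = 0.011). Of 5 tested HSP70 and HSP110 relatives, Hspa4l, an HSP110 family member like Hsph1, fell by 0.33 ± 0.09 (edgeR adjusted p = 0.017) and the others did not pass. Of 9 factors that bind HSP70 or exchange its nucleotide, Hspbp1, a nucleotide exchange factor, rose (0.35 ± 0.09, edgeR adjusted p = 0.0097). Bag3, an exchange factor that HSF1 induces under stress, fell by 0.23 ± 0.07 (edgeR adjusted p = 0.022), and St13, which steadies the HSP70 and substrate complex, fell by 0.16 ± 0.05 (edgeR adjusted p = 0.045). Dnajb14 and Hspa4l did not pass without KO 3 or WT 3, Hspbp1 did not pass without KO 3, and Bag3 did not pass in 6 and St13 in 10 of 15 alternatives.

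Of 15 HSP90 co-chaperones tested 2 rose and the others did not pass. Fkbp5, a co-chaperone of steroid receptors, had 27.6 ± 1.84 CPM in KO and 19.1 ± 1.84 CPM in WT (SD), a log2 fold change of 0.53 ± 0.10 (edgeR adjusted p = 0.0012). Ppp5c, the phosphatase that binds HSP90, rose by 0.26 ± 0.07 (edgeR adjusted p = 0.014), but did not pass without KO 3 or WT 1. With scaling to library size only 4 rose, and without KO 1, 2 fell. Of 4 small heat shock protein genes tested, Hspb11, which despite its name is known as a part of the transport machinery of cilia, fell by 0.43 ± 0.13 (edgeR adjusted p = 0.025; not passed in 7 of 15 alternatives). Hspb1, the small heat shock protein that HSF1 strongly induces in many cells, was barely detected, at 0.583 ± 0.380 CPM in KO and 0.636 ± 0.0843 CPM in WT (SD). It is named because of these values and not by the rule for named genes.

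Of the 8 subunits of TRiC/CCT, the ring that folds actin and tubulin, 2 fell. Cct4 fell by 0.25 ± 0.06 (edgeR adjusted p = 0.0093) and Tcp1 by 0.18 ± 0.06 (edgeR adjusted p = 0.032), without passing in 2 and 7 of 15 alternatives, and 1 subunit rose with library size only, no low-count filter, limma-voom or a robust dispersion estimate. Of 6 prefoldin subunits, which hand substrates to that ring, Vbp1 fell by 0.22 ± 0.07 (edgeR adjusted p = 0.038; not passed in 9 of 15 alternatives). Among 11 further mitochondrial chaperones and quality-control proteases, the protease gene Htra2 rose (0.27 ± 0.07, edgeR adjusted p = 0.0087; not passed without KO 3) and the iron-sulfur co-chaperone gene Hscb fell by 0.32 ± 0.09 (edgeR adjusted p = 0.018; not passed without KO 2, WT 1 or WT 3). The other heat shock factor genes tested, Hsf2 and Hsf4, and Hsbp1, whose product binds HSF1, did not pass. Hsf2 had the lowest p, at 0.21 ± 0.08 (edgeR adjusted p = 0.067), which passed with scaling to library size only (0.25).

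Endoplasmic reticulum chaperones rose in 5 and fell in 1 of 14 cases, with a median log2 fold change of 0.12. Of all genes tested 13.8% rose and 12% fell, with a median of -0.01. Hyou1, the HSP110 relative of that compartment, had 133 ± 6.85 CPM in KO and 93.2 ± 2.57 CPM in WT (SD), a log2 fold change of 0.51 ± 0.06 (edgeR adjusted p = 2.4e-05). Calr, the lectin chaperone calreticulin, rose by 0.24 ± 0.06 (edgeR adjusted p = 0.015) and Creld2, a disulfide isomerase induced by stress of that compartment, by 0.29 ± 0.09 (edgeR adjusted p = 0.024). The others that rose were Dnajb11 and Manf and the one that fell was Dnajb9, named after their values were known. Calr did not pass without KO 2, KO 3 or WT 1, and Creld2 did not pass without KO 3 or WT 3. The number that rose was 2 without KO 2, KO 3, WT 1 or WT 3 and 3 without WT 2 or with the DESeq2 Wald test, and of the fits that leave out 1 library, Dnajb9 passed in that without WT 3 only.

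**Figure D5:**
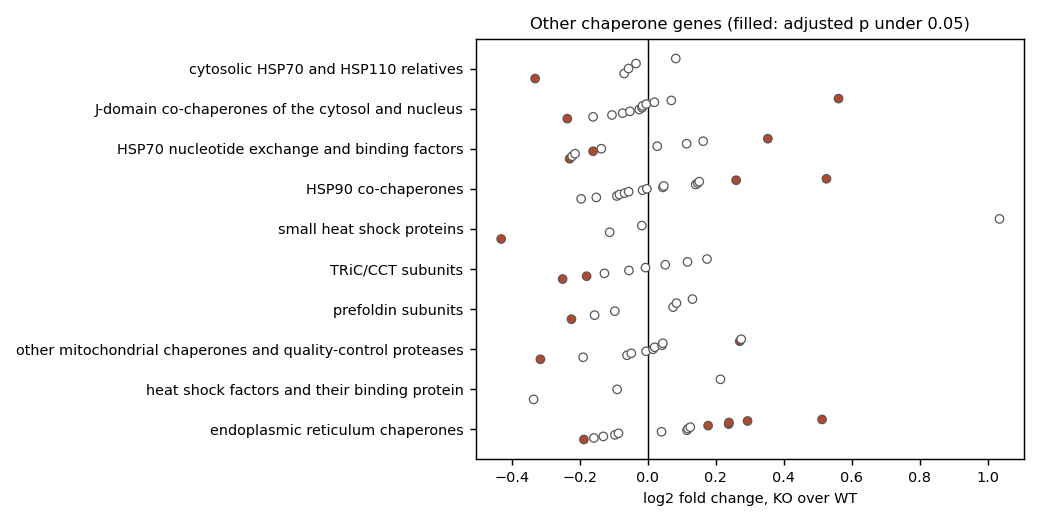
Log2 fold change, KO over WT, of each tested gene of the 10 lists of other chaperones and co-chaperones (1 point a gene, offset vertically for legibility), filled where the edgeR adjusted p is under 0.05. Filled points lie on both sides of 0, 10 higher and 10 lower of 87.

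Immediate early genes, which like heat shock genes respond to handling of cells, were looked at beside them. Of 8, 5 rose and 2 fell, where 13.8% of all genes tested rose and 12% fell. The summed level of the 8 was 1411 to 1515 CPM in KO and 1134 to 1211 CPM in WT. Fos, a subunit of the AP-1 transcription factor, had 135 ± 8.36 CPM in KO and 55.6 ± 3.58 CPM in WT (SD), a log2 fold change of 1.28 ± 0.07 (edgeR adjusted p = 1.2e-08). Dusp1, encoding a MAP kinase phosphatase, rose by 0.87 ± 0.09 (edgeR adjusted p = 9.2e-06) and Junb by 0.47 ± 0.07 (edgeR adjusted p = 0.00015). Fosb and Ier2 also rose and Jun and Atf3 fell, named after their values were known. The part of handling in the chaperone values was not tested.

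The genes most like the inducible members in their course over the 6 libraries, by Pearson correlation of log2 CPM with the mean of the 5 centred inducible genes, were Bcl2l13 (r = 0.998), Pask (r = 0.994) and Nsmf (r = 0.993), out of 13239 genes compared. With 6 libraries that differ in genotype such values are a description only. Bcl2l13 did not pass the test (0.19 ± 0.07, edgeR adjusted p = 0.067), whereas Pask and Nsmf rose. Pask had few reads, from 13 to 43 per library. Within the inducible members, r with their own mean was 0.98 for Hspa1a, 0.99 for Hspa1b, 0.85 for Hsph1, 0.32 for Hsp90aa1 and -0.55 for Dnajb1, so the mean follows the HSP70 copies.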

How the data were processed

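The deposited table gives each gene symbol its raw read count, unscaled, in 3 KO and 3 WT libraries. Per the submitters' processing notes the authors used the mm10 build, with DESeq2, HTSeq, SAMtools, HISAT, HISAT2 and TopHat2 listed without version or role. Annotation, strand setting and the handling of multi-mapping reads: not given in the sources used here. Of 30587 rows, 13249 passed filterByExpr (minimum count 10). A symbol on several rows (23 symbols) was given to the row with the highest total. Counts were scaled with TMM. Genotype was the only term of the edgeR 4.0.16 quasi-likelihood F test (R 4.3.3), with Benjamini-Hochberg adjustment over all rows tested and calls at an adjusted p under 0.05. The SE is the size of the log2 fold change over the square root of F. Exon lengths and positions come from GENCODE M21 (mm10) and promoters from RefSeq (GRCm38.p6). Alternatives were DESeq2 size factors, library size only, other filters, limma-voom (limma 3.58.1), the DESeq2 1.42.0 Wald test, a robust dispersion estimate, a replicate block, left-out libraries, and summed reads of Hspa1a and Hspa1b. The procedure was tested on simulated data. Replicates differed beyond sampling noise, by the chi-square per degree of freedom over rows with at least 10 reads in the pair. It was 12.2 for KO 1 and KO 2, 6.77 for KO 1 and KO 3, and 3.90 for KO 2 and KO 3. For WT it was 16.5 for WT 1 and WT 2, 4.74 for WT 1 and WT 3, and 17.6 for WT 2 and WT 3.

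Named genes were the 10 members, Epas1, and of each list up to 3 called genes by lowest p, or otherwise the gene of lowest p. Members, lists and rules were chosen with earlier results of these data known.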

Additional observations from a re-analysis of the deposited data

How the results depend on the processing

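Hspa1b, Hsph1 and Hsf1 were called higher in every alternative run, with log2 fold changes of 0.71 to 0.97, 0.42 to 0.55 and 0.35 to 0.46. Hspa1a ranged from 0.73 to 1.11, and without KO 3 it did not pass, which left 3 members called higher against 4 otherwise. Hsp90ab1 ran from -0.18 to -0.149 over the 6 fits that leave out 1 library, and 0 to 1 members were called lower there. With no low-count filter it was -0.157 and 0 members were called lower by edgeR, against 1 at an unadjusted p under 0.05. With the filter kept, edgeR and the Wald test of DESeq2 each called 1 member lower. Of the uncalled members, Hspa8, Hsp90aa1 and Hspe1 changed sign in some settings, while Dnajb1 and Hspd1 stayed negative in all. Hspa8 was 0.0109 with library size only. Over the fits that leave out 1 library, Hspa8 ran from -0.0496 to 0.00105, Hsp90aa1 from -0.0405 to 0.0563, Hspe1 from -0.112 to 0.0151, Dnajb1 from -0.191 to -0.0669, Hspd1 from -0.106 to -0.0527 and the Hspd1 over Hspe1 log2 ratio from -0.109 to 0.00984. The cause was not tested.

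Of the other chaperone genes, 4 to 11 rose and 1 to 8 fell when 1 library was left out. The number that fell was 6 with library size only, 5 with no low-count filter, 6 with the DESeq2 Wald test and 4 without WT 2 and KO 1, against 10. Over all genes, 1182 to 1992 rose and 945 to 1622 fell when 1 library was left out. Of 17 called chaperone genes named from the lists, 3 were called in every alternative (Dnajb2, Fkbp5 and Hyou1), as were the immediate early genes Fos, Dusp1 and Junb. Same-numbered libraries correlated at 0.01, -0.11 and 0.08 in their deviations from genotype means, so the numbers were not taken as pairs. Pairs of unlike number ran from -0.21 (KO 1 and WT 3) to 0.18 (KO 1 and WT 2). With the replicate block, 4 members rose and 1 fell, and over all genes 1741 rose and 1506 fell. The groups of 3 libraries limit all tests.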
